A study of Mus musculus with 12 samples.

Results

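The 10 genes Peg3, Peg10, Sgce, Mest, Plagl1, Grb10, Nnat, Ndn, Magel2 and Zdbf2 are imprinted genes of the mouse that lie outside the H19-Igf2 and Dlk1-Dio3 regions. They were taken by name from the gene symbols of the deposited tables, 10 of 55385 listed genes, and all 10 had enough counts to be tested. RNA-seq of polyadenylated RNA was done on cerebellum of C57BL/6 mice at postnatal day 14, with 3 wild-type libraries (WT) and 3 libraries labelled EED-/-, which come from conditional knockouts of Embryonic Ectoderm Development (Eed). The labels name neither the Cre line nor the cells in which Eed was deleted, and nothing in them ties each library to its own animal, which limits p-values to the spread between these libraries. A further 6 ChIP-seq samples of the series were not analysed here.

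Imprinted genes are transcribed mainly from the maternal or the paternal copy, which differ in DNA methylation at control regions set in the germ line. Several of them are coexpressed during growth and are switched down after birth, and Plagl1 is a transcription factor placed upstream of others in this set. Peg3, Peg10, Sgce, Mest, Plagl1, Nnat, Ndn, Magel2 and Zdbf2 are known as paternally expressed, whereas Grb10 is expressed from the maternal copy in most tissues and from the paternal copy in neurons. Eed is a core subunit of Polycomb repressive complex 2, which methylates H3K27, and in embryos that mark is known to cover sequence upstream of Zdbf2 before the gene is activated. Gene-level counts carry no information on the parental copy.

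Libraries held 19621672 to 20366041 counts. Eed itself was at 20.1, 26.6 and 23.5 CPM (counts scaled to library size, with TMM factors) in WT replicates 1, 2 and 3 and at 11.6, 9.31 and 11.3 CPM in EED-/- replicates 1, 2 and 3 (adjusted p = 0.0015). Among 18091 tested genes 2125 were higher and 2544 lower in EED-/- libraries by edgeR's quasi-likelihood test at a Benjamini-Hochberg adjusted p under 0.05. These are 11.7% and 14.1% of the tested genes, the background for the counts that follow. Markers of the cerebellum's granule neurons and Purkinje cells were detected in both genotypes, but all 16 granule neuron markers were lower in EED-/- libraries. Mitochondrial genes held 3.21%, 6.37% and 5.22% of counts in WT replicates 1, 2 and 3 and 7.16%, 6.45% and 8.04% in EED-/- replicates 1, 2 and 3. Every EED-/- library was thus above every WT library in this share, narrowly for replicate 2, and WT replicate 1 was the lowest. In bulk tissue, fewer cells of a type and less RNA per cell cannot be told apart.

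The sequences just before the transcription starts are shown for Zdbf2 and Magel2, which rose most and second most, and for Mest, which did not pass the test, to set side by side the promoters of genes that differ in response. RefSeq's promoter table (GRCm38.p6) held 12 windows of 250 bases before to 50 bases after a start for 8 of the 10 genes, and none for Peg10 or Sgce. Only the 250 bases before the start are printed, 5′ to 3′ on the gene's strand. Capitals mark TGCCGC, the core of the site bound by the imprint-protecting factor ZFP57, or its reverse complement. The windows are chr1:63200108-63200357 (plus strand) for an upstream start of Zdbf2, chr7:62376729-62376978 (plus) for Magel2 and chr6:30737800-30738049 (plus) for Mest. Zdbf2 and Mest had several windows, and for each a window that holds TGCCGC is shown. The Zdbf2 start shown lies upstream of the counted gene model. The Mest start shown lies inside its counted gene model, which begins at 30723547.
Zdbf2, upstream start: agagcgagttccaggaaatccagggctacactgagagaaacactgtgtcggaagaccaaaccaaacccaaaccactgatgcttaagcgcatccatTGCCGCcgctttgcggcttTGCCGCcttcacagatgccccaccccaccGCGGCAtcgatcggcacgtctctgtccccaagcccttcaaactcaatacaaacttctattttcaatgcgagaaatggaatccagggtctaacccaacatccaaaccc
Magel2: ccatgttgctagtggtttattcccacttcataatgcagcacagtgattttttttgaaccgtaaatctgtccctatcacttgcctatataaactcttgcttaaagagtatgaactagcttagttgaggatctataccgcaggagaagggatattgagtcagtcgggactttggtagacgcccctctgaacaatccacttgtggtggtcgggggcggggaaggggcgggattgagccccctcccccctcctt
Mest: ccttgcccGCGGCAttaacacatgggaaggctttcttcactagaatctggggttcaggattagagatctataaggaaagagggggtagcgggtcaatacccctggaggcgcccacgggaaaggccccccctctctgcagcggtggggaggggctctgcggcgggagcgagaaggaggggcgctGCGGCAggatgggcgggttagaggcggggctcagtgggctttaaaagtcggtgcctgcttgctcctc

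TGCCGC on either strand was found in 6 of the 12 windows, against 11.6% of all 32851 windows of the table. Of the 6, 2 are Mest windows 3 bases apart. The 11.6% is not matched for CpG, which TGCCGC contains and of which these 12 windows held more. Positions count from the start, with the base before it as -1. The upstream Zdbf2 window held 3 matches, at -155, -136 and -107, while the window at the start of the counted Zdbf2 gene model (chr1:63273019-63273318) held none of the searched motifs. The Plagl1 window, which lies inside its gene model, held 1 at -90, and the Mest window 2 at -242 and -67. A second Mest window, shifted by 3 bases, held the same matches, and Nnat and Grb10 had 1 each after the start, at 28 and 25. A further Mest window (chr6:30733256-30733555) held none of the searched motifs. GGGGCCCC, a site ascribed to PLAGL1, was found in the Peg3 window alone, at -201, against 1.08% of all windows, and GCCATNTT, the site of YY1, in 0 of 12 against 6.05%. No match of a motif overlapped a match of another. The windows held 8 to 45 CpG dinucleotides, with a median of 16 against 7 over the table: the largest numbers were 45 at 1 start of Grb10, 38 at the downstream start of Zdbf2 and 26 at Plagl1. Mest, which did not pass the test, held TGCCGC, and Magel2, which rose, held none of the searched motifs.

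Of the 10 imprinted genes 7 rose in EED-/- cerebellum and 0 fell by edgeR's test. At an unadjusted p under 0.05 0 were lower too, as by DESeq2 and limma-voom. The median log2 change of the 10 was 0.86, against -0.03 over all tested genes. The 10 genes were chosen with earlier results of these data known, so contrasts with all tested genes are descriptive. The genes that rose were Zdbf2, Magel2, Nnat, Plagl1, Grb10, Peg10 and Peg3, between 1.52-fold and 2.85-fold, and in each the 3 EED-/- libraries lay above the 3 WT libraries. Over all tested genes 43.9% had no overlap between genotypes, and 20.1% had none with EED-/- on the higher side. Sgce, Ndn and Mest did not pass the test, and their libraries overlapped between genotypes. In the authors' deposited table of differences the adjusted p of the same comparison was under 0.05 for 7 of the 10, all higher, against 6.04% of the 35173 genes with a p there. The 35173 include genes with too few counts for edgeR's test, which covered 18091. That share is therefore not directly comparable with the 11.7% given above. The mitochondrial share of counts and the granule neuron markers moved with genotype in the same libraries. Their part in these rises was not tested.

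**Figure D1:**
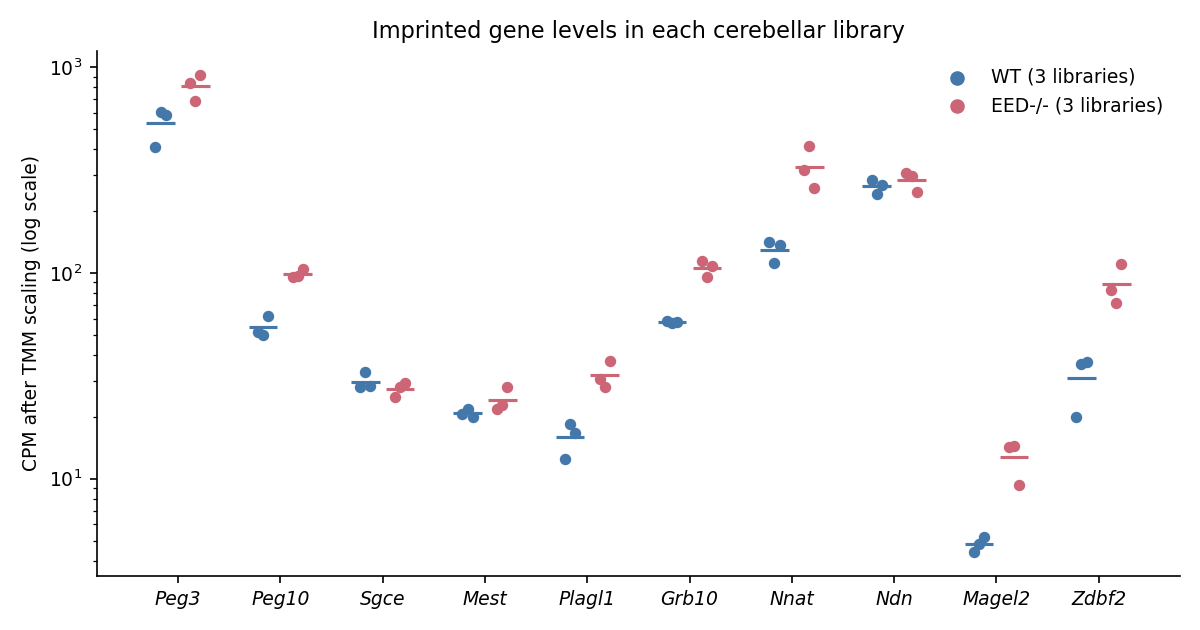
Level of each imprinted gene (CPM after TMM scaling, log axis) in the 3 WT and 3 EED-/- libraries, with points for libraries and bars for group means. The 3 EED-/- points lie above the 3 WT points for 7 genes and overlap them for Sgce, Mest and Ndn.

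Among the zinc finger proteins, Zdbf2 had the largest rise, which was also the largest of the 10. Zdbf2, whose protein is known to promote early growth and feeding through the hypothalamus, was at 19.9, 36.1 and 36.9 CPM in WT replicates 1, 2 and 3 and at 82.8, 71.4 and 111 CPM in EED-/- replicates 1, 2 and 3. The lowest EED-/- library was thus well above the highest WT library, and WT replicate 1 was lower than its group. The means of 31.0 ± 9.58 and 88.3 ± 20.3 CPM (SD, n = 3) gave a log2 fold change of 1.51 (SE 0.258, edgeR adjusted p = 0.00456). Zdbf2 (ENSMUSG00000027520.15) lies on the plus strand of chromosome 1, 63273265 to 63314576 in GRCm38.

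Plagl1, also called Zac1, encodes a zinc finger factor known to arrest the cell cycle. It was at 12.5, 18.5 and 16.6 CPM in the WT and at 30.4, 27.9 and 37.1 CPM in the EED-/- libraries. Every EED-/- library was above every WT library, and WT replicate 1 was again the lowest. The log2 fold change was 1.004 (SE 0.176, edgeR adjusted p = 0.00446), a 2.01-fold rise. The gene (ENSMUSG00000019817.18) lies on the plus strand of chromosome 10, 13060504 to 13131694.

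Peg3, a large Krüppel-type zinc finger protein, had the smallest of the 7 rises. Its levels were 408, 608 and 588 CPM in WT and 841, 683 and 921 CPM in EED-/- libraries. The genotypes did not overlap, but EED-/- replicate 2 was close to WT replicates 2 and 3. The log2 fold change was 0.61 (SE 0.18, edgeR adjusted p = 0.0379), and the call was lost without WT replicate 3 (0.68, adjusted p = 0.076), EED-/- replicate 1 (0.59, adjusted p = 0.119) or EED-/- replicate 3 (0.57, adjusted p = 0.0891). Peg3 (ENSMUSG00000002265.17) lies on the minus strand of chromosome 7, 6703892 to 6730431.

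The signalling adaptor Grb10, which binds and restrains the insulin and IGF1 receptors, rose 1.83-fold. Its WT levels of 58.4, 57.1 and 58.0 CPM had the smallest relative spread of the 10 genes, and its EED-/- levels were 114, 95.5 and 108 CPM. The gap between the genotypes was many times the spread among WT libraries (SD 0.642 CPM). The spread among EED-/- libraries was larger (SD 9.52 CPM), though still smaller than the gap. The log2 fold change was 0.87 (SE 0.109, edgeR adjusted p = 0.000998). Grb10 (ENSMUSG00000020176.17) lies on the minus strand of chromosome 11, 11930508 to 12038683. Gene-level counts do not separate its promoters, so the neuronal paternal transcripts and the maternal transcripts of other cells are counted together.

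Nnat encodes neuronatin, a small membrane protein of the endoplasmic reticulum. It was at 141, 112 and 137 CPM in WT and at 316, 413 and 258 CPM in EED-/- libraries. All 3 EED-/- libraries were above the WT libraries, with replicate 3 the lowest and replicate 2 the highest. The log2 fold change was 1.34 (SE 0.182, edgeR adjusted p = 0.00147). Nnat (ENSMUSG00000067786.16; chromosome 2, 157560078 to 157562522, plus strand) lies within the span of Blcap on the opposite strand, and the annotated exons of the pair share 0 bases. Reads of Gm23134, a small annotated RNA whose exon shares 87 bases with exons of Nnat, cannot be told from those of Nnat unless strand was used.

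The neighbouring genes Ndn and Magel2 encode the MAGE family proteins necdin and MAGEL2. Necdin is known to restrain cell division, and MAGEL2 works with the ubiquitin ligase TRIM27 in endosomal recycling. Magel2 was at 4.41, 4.83 and 5.22 CPM in WT and at 14.2, 14.5 and 9.30 CPM in EED-/- libraries. The lowest EED-/- library was above every WT library, and the log2 fold change was 1.39 (SE 0.204, edgeR adjusted p = 0.00203). Magel2 (ENSMUSG00000056972.6; chromosome 7, 62377010 to 62381640, plus strand) rested on 86 to 101 counts per WT library. Ndn (ENSMUSG00000033585.5; chromosome 7, 62346569 to 62350262, plus strand) was at 283, 242 and 269 CPM in WT and at 305, 295 and 247 CPM in EED-/- libraries. These ranges overlapped, with EED-/- replicate 3 below WT replicates 1 and 3, and the log2 difference was 0.09 with a 95% interval of -0.19 to 0.37 (edgeR adjusted p = 0.616).

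Peg10 and Sgce start 99 bases apart on opposite strands of chromosome 6 and share an imprinting control region. Peg10, a gag-pol protein derived from a retrotransposon that is required in the placenta, was at 51.9, 50.2 and 61.9 CPM in WT and at 95.5, 96.3 and 105 CPM in EED-/- libraries. The genotypes were far apart relative to the spread within each (log2 fold change 0.85, SE 0.119, edgeR adjusted p = 0.00163). Sgce, epsilon-sarcoglycan, the gene of myoclonus-dystonia, was at 27.9, 32.9 and 28.1 CPM in WT and at 25.0, 28.0 and 29.2 CPM in EED-/- libraries. These values overlapped, and the log2 difference of -0.11 had a 95% interval of -0.39 to 0.16 (edgeR adjusted p = 0.538); with upper-quartile scaling it was 0.01. Peg10 (ENSMUSG00000092035.8) spans 4747306 to 4760517 on the plus strand and Sgce (ENSMUSG00000004631.15) 4674350 to 4747207 on the minus strand.

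Mest, a protein of the endoplasmic reticulum with an alpha/beta hydrolase fold that marks growing mesoderm and fat, was at 20.6, 21.9 and 19.9 CPM in WT and at 21.7, 22.9 and 27.8 CPM in EED-/- libraries. EED-/- replicate 3 was the highest, and EED-/- replicate 1 lay below WT replicate 2. The log2 difference was 0.22 with a 95% interval of -0.08 to 0.51 (edgeR adjusted p = 0.265). Mest (ENSMUSG00000051855.15; chromosome 6, 30723547 to 30748465, plus strand) shares 912 exon bases with Copg2 on the opposite strand. No label states whether counting used strand, so reads of that overlap cannot be assigned with certainty.

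Levels between genes were compared as CPM per kilobase of annotated exon. In WT cerebellum the order was Ndn (71.7 ± 5.69), Nnat (71.1 ± 8.46), Peg3 (40.1 ± 8.29), Peg10 (8.20 ± 0.948), Grb10 (6.36 ± 0.0707), Mest (5.27 ± 0.257), Sgce (2.79 ± 0.267), Zdbf2 (2.45 ± 0.756), Plagl1 (2.03 ± 0.396) and Magel2 (1.04 ± 0.0872; SD, n = 3). The ranges of WT libraries overlapped between Ndn and Nnat, between Sgce and Zdbf2 and between Zdbf2 and Plagl1, and not between the other neighbours in the order. In EED-/- cerebellum Nnat ranked first at 179.9 ± 42.9 CPM per kilobase, above Ndn at 76.5 ± 8.39. Zdbf2 moved from rank 8 to rank 6, and Sgce from rank 7 to rank 10. These lengths are of the union of annotated exons, so a gene with long rare exons is understated.

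The libraries of a genotype did not rank alike across the 10 genes. In EED-/- cerebellum, replicate 3 was the highest of its group for Peg3, Peg10, Sgce, Mest, Plagl1 and Zdbf2 and the lowest for Nnat, Ndn and Magel2. WT replicate 1 was the lowest of its group for Peg3, Sgce, Plagl1, Magel2 and Zdbf2 and the highest for Grb10, Nnat and Ndn. Thus Peg3, Plagl1, Zdbf2 and Sgce were each lowest of their group in WT replicate 1 and highest in EED-/- replicate 3. Sgce was not among the genes that rose.

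Ratios of genes of the same imprinted locus, taken within a library, do not depend on scaling between libraries. The log2 ratio of Sgce to Peg10 was -0.90, -0.61 and -1.14 in WT and -1.93, -1.78 and -1.85 in EED-/- libraries. It was lower in every EED-/- library, by 0.97 on average. The log2 ratio of Magel2 to Ndn was -6.00, -5.64 and -5.68 in WT and -4.42, -4.35 and -4.73 in EED-/- libraries, higher by 1.27 without overlap. The ratio of Blcap to Nnat differed by -1.14, that of Adam23 to Zdbf2 by -1.48 and that of Copg2 to Mest by -0.24, also without overlap. By an exact two-sided permutation test each of these 5 had p = 0.1, below which a design of 3 against 3 cannot go (0.16 after Benjamini-Hochberg adjustment over the 8 pairs).

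The remaining pairs overlapped between genotypes. Usp29, a deubiquitinase gene, starts 147 bases from Peg3 on the opposite strand, and the log2 ratio of Usp29 to Peg3 stayed between -3.14 and -3.03 in the 6 libraries (difference -0.03, exact p = 0.7). The ratio of Ddc to Grb10 differed by 0.17 (exact p = 0.5) and that of Snrpn to Ndn by -0.08 (exact p = 0.6). With this number of libraries, such p-values do not show that the ratios were equal.

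**Figure D2:**
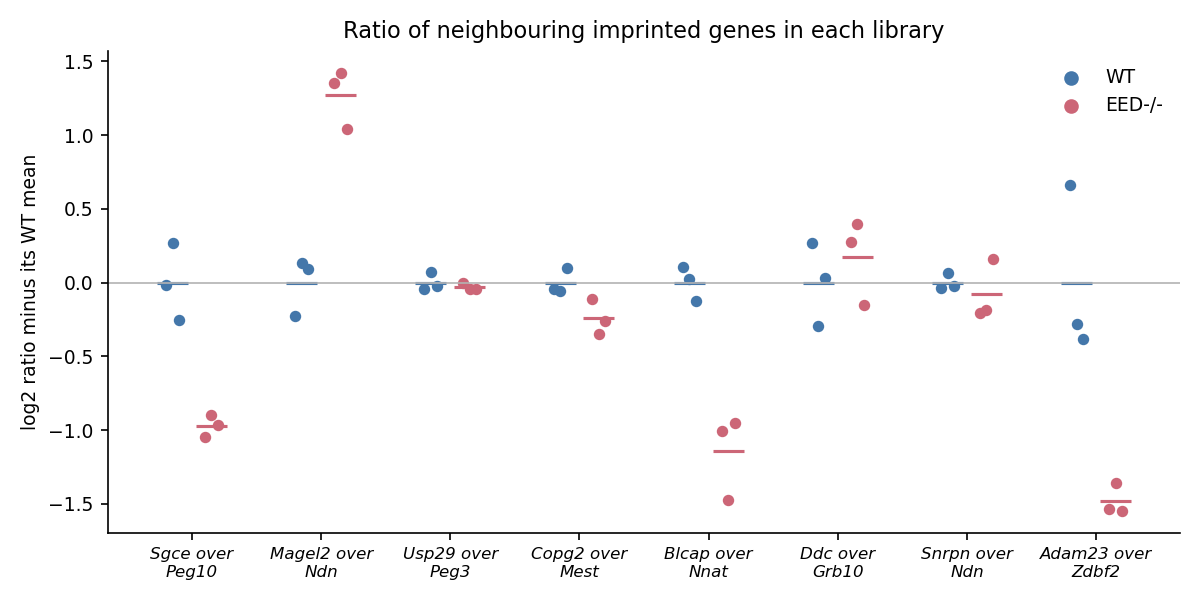
The log2 ratio of 8 gene pairs in each library, minus the WT mean of the pair. Both genes of a pair belong to the same imprinted locus. Points are libraries and bars are group means. EED-/- libraries lie apart from WT libraries for Sgce over Peg10, Magel2 over Ndn, Copg2 over Mest, Blcap over Nnat and Adam23 over Zdbf2, and within or next to them for the other 3 pairs.

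Other imprinted genes of the same loci were taken from a list of 34 symbols, of which 30 were in the table and 24 could be tested. Of the 24, 7 rose and 0 fell by edgeR's test, 29.2% against the 11.7% higher among all tested genes, with a median log2 difference of 0.33. Over 13 alternatives, 5 to 10 of the 24 were called higher. At an unadjusted p under 0.05, Atp10a and Casd1 were lower, and DESeq2 and limma-voom called 0 lower. Atp10a was called lower without EED-/- replicate 3, and the noncoding gene A330076H08Rik without WT replicate 1, which made 1 lower in each case. The 7 were Zim1 beside Peg3, Calcr, Asb4 and Pon3 around Peg10 and Sgce, Ddc and Cobl beside Grb10, and Peg12 beside Magel2. Zim1, Calcr and Asb4 are known as maternally expressed, so genes of either parental class were among those that rose.

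At the Peg3 locus, Zim1, a zinc finger gene, rose from 7.49, 10.03 and 10.1 CPM in WT to 21.2, 17.2 and 20.2 CPM in EED-/- libraries (2.12-fold, edgeR adjusted p = 0.0024). The genotypes did not overlap. Usp29 was at 46.2, 74.6 and 67.7 CPM in WT and at 98.0, 77.6 and 104 CPM in EED-/- libraries (log2 difference 0.57, edgeR adjusted p = 0.0584). It did not pass the test, although its libraries did not overlap and its values followed those of Peg3 library by library. Its adjusted p ranged from 0.0107 to 0.165 over 13 alternatives and was under 0.05 in 6 of them. These were RLE, upper-quartile and library-size scaling, DESeq2, no filter on low counts, and WT replicate 2 left out (0.0312).

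At the locus of Peg10 and Sgce, the calcitonin receptor gene Calcr rose 2.33-fold, from 2.73 ± 0.469 to 6.37 ± 0.361 CPM (edgeR adjusted p = 0.00259). Asb4, of the ubiquitin ligase adaptor family, rose 2.1-fold, from 4.06 ± 0.643 to 8.53 ± 0.755 CPM (edgeR adjusted p = 0.00361). The paraoxonase Pon3 rose 2.09-fold to 3.47 ± 0.616 CPM (edgeR adjusted p = 0.0429), and its call was lost without WT replicate 1 or 3 or any EED-/- replicate (adjusted p 0.0532 to 0.129). Casd1, Ppp1r9a and Pon2 of the same locus did not pass the test. Casd1, next to Sgce, was at 75.0, 101.6 and 84.2 CPM in WT and at 67.4, 55.7 and 74.4 CPM in EED-/- libraries. Its EED-/- libraries all lay below its WT libraries (log2 difference -0.40, edgeR adjusted p = 0.09; 0.0611 to 0.254 over 13 alternatives). The log2 differences of Ppp1r9a and Pon2 were 0.13 and 0.35 (edgeR adjusted p = 0.593 and 0.105), and Pon2 passed with upper-quartile factors or plain library sizes (adjusted p = 0.0365 and 0.0468; 0.0365 to 0.26 over 13 alternatives).

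Beside Grb10, Ddc, which encodes the enzyme that makes dopamine and serotonin, rose from 22.9, 15.1 and 19.3 to 45.0, 41.1 and 31.7 CPM (edgeR adjusted p = 0.00478). Cobl, an actin nucleator, rose 2.44-fold, from 12.3 ± 1.41 to 30.1 ± 2.26 CPM (edgeR adjusted p = 0.000403). Both groups of libraries were apart for each gene, so the called genes of this locus, Grb10 included, moved in the same direction. Next to Magel2, the intronless gene Peg12 rose from 1.20 ± 0.262 to 2.90 ± 0.981 CPM (edgeR adjusted p = 0.0184), a call that was lost without EED-/- replicate 2 (adjusted p = 0.0693; 0.00304 to 0.0693 over 13 alternatives). Snrpn, the main spliceosomal transcript of that domain, was at 669 ± 30.3 and 675 ± 21.3 CPM (log2 difference 0.01, edgeR adjusted p = 0.949).

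**Figure D3:**
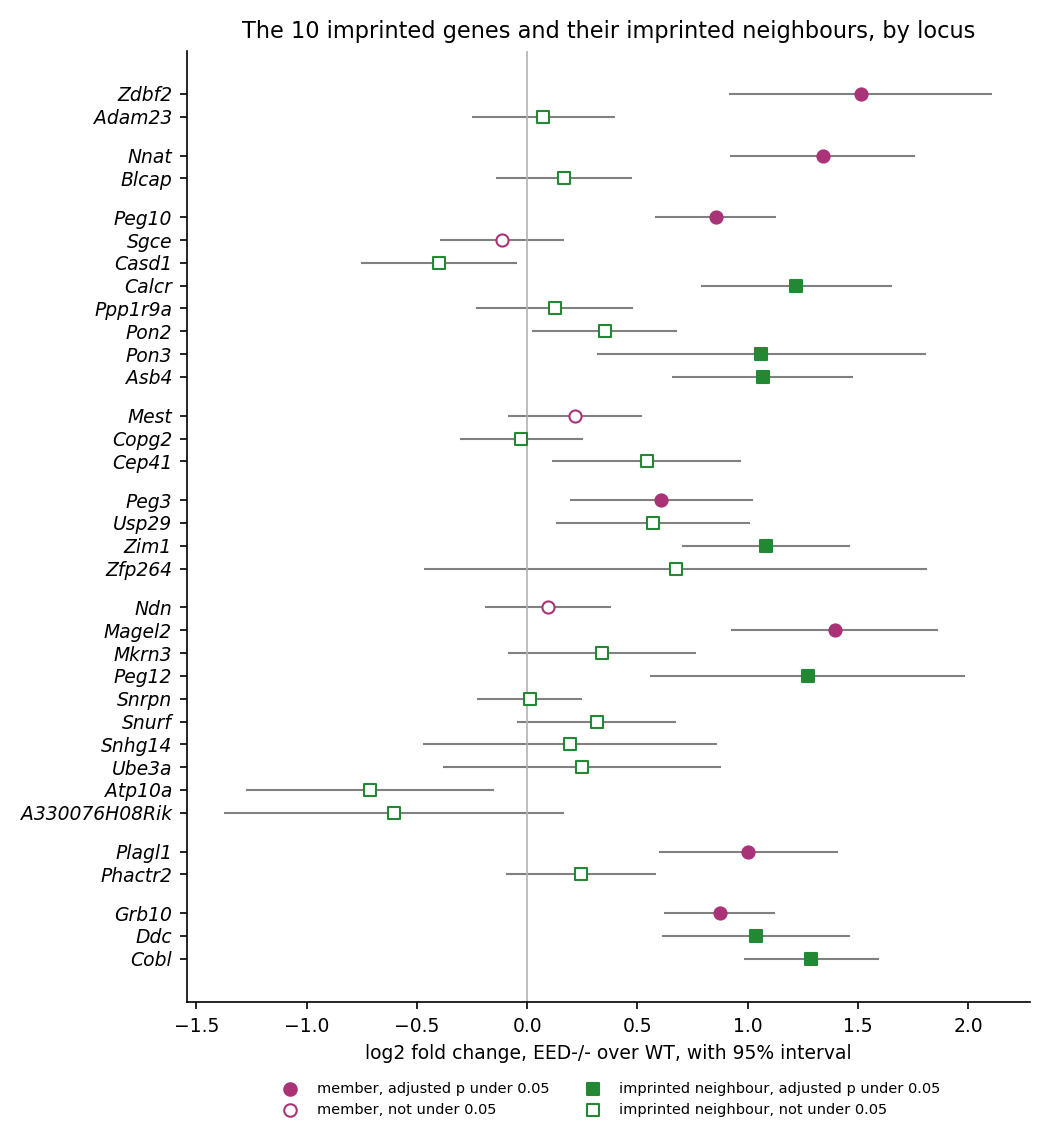
The log2 fold change of EED-/- over WT with its 95% interval for the 10 imprinted genes (circles) and 24 tested imprinted neighbours (squares), grouped by locus, filled where the adjusted p was under 0.05. Filled symbols, 7 of each kind, all lie to the right of 0.

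A wider view took every tested gene whose start lay within 500 kb of the start of any of the 10, a window chosen after the data were seen. Outside the imprinted lists there were 56 such genes, of which 8 were higher and 8 lower, with a median log2 difference of -0.07. Within 250 kb there were 20, of which 2 were higher and 3 lower. Around Zdbf2, 2 of 9 such genes were called, both lower, while around Nnat 2 of 14 were higher, 1 of which was Gm23134, and 2 lower. The shares over the 56 genes were near those of all tested genes.

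**Figure D4:**
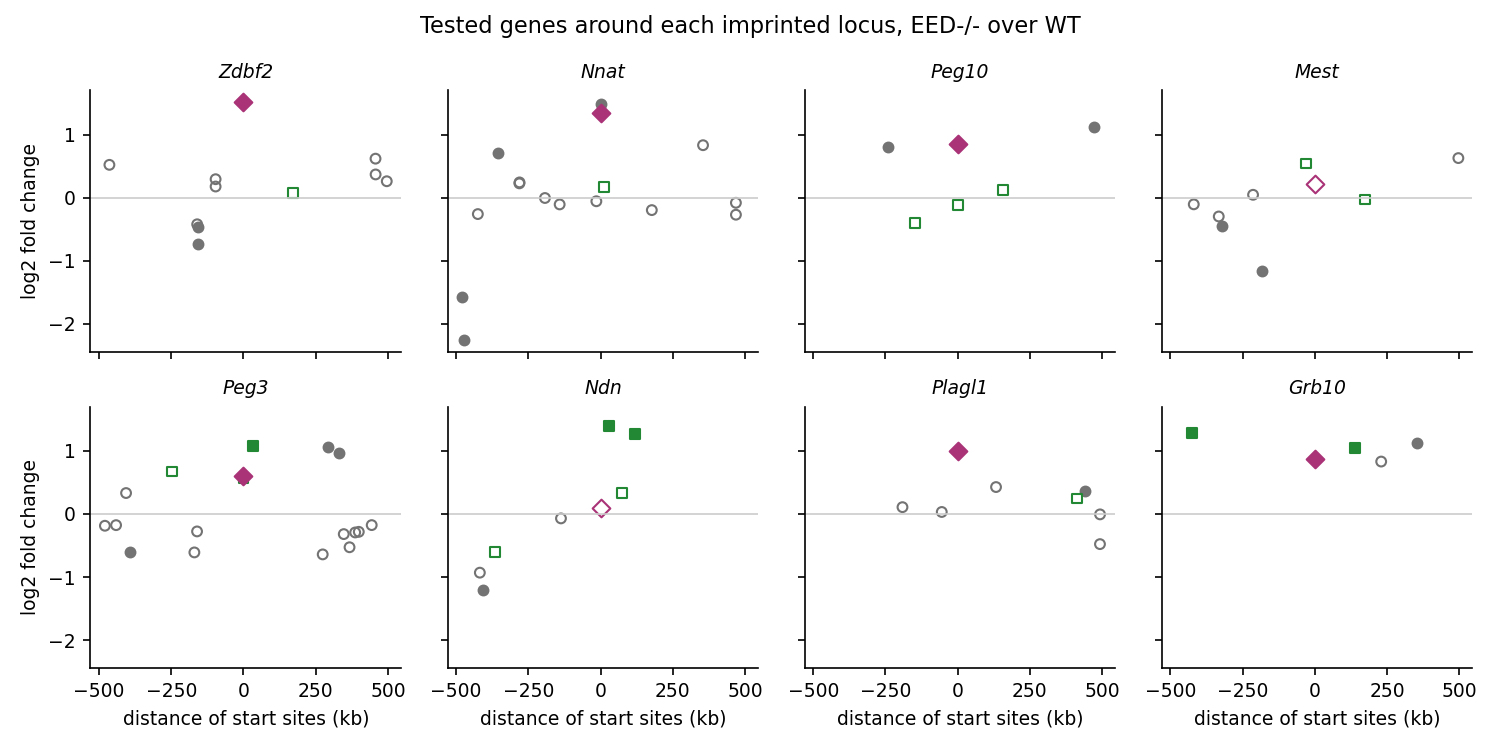
The log2 fold change of tested genes against the distance of their start from that of the imprinted gene named above each panel (diamond), in kb along its strand. Squares are genes of the imprinted lists, circles other genes, and filled symbols passed the test. Around Zdbf2 and Plagl1 the diamond lies above all other points, and around Nnat it lies above all but Gm23134.

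For each gene that rose, the 2 genes with the closest profile were found among 13895 others with an ordinary symbol and a mean of at least 1 CPM. The measure was the root mean square difference of log2 CPM, centred on each gene's mean, over the 6 libraries. For Peg3 they were C1galt1 (0.0377) and its neighbour Usp29 (0.04). For Plagl1 they were Cd55 (0.0261) and Lix1 (0.0572), for Grb10 Shisa9 (0.0452) and Cmbl (0.0565), and for Peg10 Cckbr (0.0411) and Arhgap22 (0.0589). For Nnat they were the collagen gene Col3a1 (0.0676), listed among the meningeal markers, and Crabp1 (0.0727). For Magel2 they were Mn1 (0.0726) and Cacna1h (0.0836), and for Zdbf2 Zkscan16 (0.101) and Npsr1 (0.115). With so many genes and 6 libraries close profiles are found for any gene, so these are descriptions.

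Imprinted genes of other loci also held more higher than lower calls. Of 28 tested, 11 were higher (8 to 14 over 13 alternatives) and 3 lower, with a median log2 difference of 0.46. H19, the maternal noncoding RNA beside Igf2, rose from 7.50 ± 0.813 to 82.7 ± 11.8 CPM, the cell cycle inhibitor Cdkn1c rose 3.06-fold, and Igf2, a fetal growth factor, rose 2.61-fold (edgeR adjusted p = 3.66e-05, 0.000381 and 0.000467). The 3 lower genes were Airn, Kcnk9 and Peg13, and 1 was lower without WT replicate 3 and 0 without EED-/- replicate 1, 2 or 3; with upper-quartile scaling 0 were lower. Among 8 tested genes of the kind imprinted through maternal H3K27me3 in the early embryo, 3 were higher: Smoc1 (2.56-fold), Runx1 (2.79-fold) and the amino acid transporter Slc38a4 (3.85-fold; edgeR adjusted p = 0.000356, 0.00746 and 0.0097). Gab1 was lower at an adjusted p of 0.0471 (0.0488 to 0.198 over 13 alternatives), and 0 genes of the list were lower without WT replicate 1 or 3 or EED-/- replicate 1, 2 or 3. The median of these 8 was 0.34.

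Of 10 tested factors that keep imprints, 1 was higher and 3 lower, with a median log2 difference of -0.22. Zfp57, whose protein holds methylation at imprinting control regions, fell from 38.6 ± 9.68 to 21.6 ± 3.48 CPM (edgeR adjusted p = 0.0176). The insulator protein gene Ctcf fell 1.51-fold (edgeR adjusted p = 0.00347) and Trim28, the corepressor partner of ZFP57, 1.35-fold (edgeR adjusted p = 0.0495; 0.026 to 0.204 over 13 alternatives). Only 1 of the 3 was lower without WT replicate 3 or EED-/- replicate 3, and it was Ctcf. Uhrf1, which recruits the maintenance methyltransferase in dividing cells, rose from 3.09 ± 0.702 to 7.26 ± 1.61 CPM (edgeR adjusted p = 0.0072), beside the rise of 8 of 12 markers of dividing cells.

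Partners of the imprinted proteins were taken as further lists. In the MAGE family and the complex of MAGEL2, 1 of 16 was higher and 0 lower (median 0.04): Maged2, a MAGE gene of the X chromosome, rose from 58.4 ± 2.39 to 106 ± 12.9 CPM (edgeR adjusted p = 0.00176). Without WT replicate 2, and by DESeq2 and limma-voom, 1 of these genes was lower, and 2 were at an unadjusted p under 0.05. Of 26 genes of insulin and IGF receptor signalling, the pathway that GRB10 restrains, 6 were higher and 5 lower (median -0.10). Besides Igf2 the binding protein Igfbp2 rose 2.06-fold and the transcription factor Foxo3 fell 2.38-fold (edgeR adjusted p = 0.00243 and 0.00143).

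Of 15 genes of the sarcoglycan and dystrophin complex, to which epsilon-sarcoglycan belongs, 4 were higher and 2 lower (median 0.09). Syntrophin Sntb1 rose 2.59-fold and the sarcoglycans Sgcz, Sgca and Sgcd 2.71-fold, 2.59-fold and 2.04-fold, at levels of 1.82 to 2.89 CPM in EED-/- libraries for the sarcoglycans. Nos1 fell 2.95-fold and Dtna 1.4-fold. Without EED-/- replicate 1 the counts were 2 higher and 1 lower, and without EED-/- replicate 2, 1 was lower. Of 6 calcium pumps of the endoplasmic reticulum and their small regulators, 2 were higher and 1 lower (median 0.34). The muscle pump Atp2a1 and its inhibitor Sln rose 5.8-fold and 2.85-fold and Mrln, a small inhibitor of the pump, fell 9.48-fold; without WT replicate 2 or 3 or EED-/- replicate 1 or 2 only Atp2a1 was higher.

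Of 15 gag-derived genes, relatives of Peg10 by origin, 4 were higher and 2 lower (median 0.24). The higher genes were Pnma2 (1.68-fold), the imprinted Rtl1 (1.71-fold), Arc and Rtl4, and the lower ones Ldoc1 (3.06-fold) and Asprv1. The higher genes numbered 2 without WT replicate 3 or EED-/- replicate 1 or 2, and 1 was lower without WT replicate 1 or 3 or EED-/- replicate 2 or 3.

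**Figure D5:**
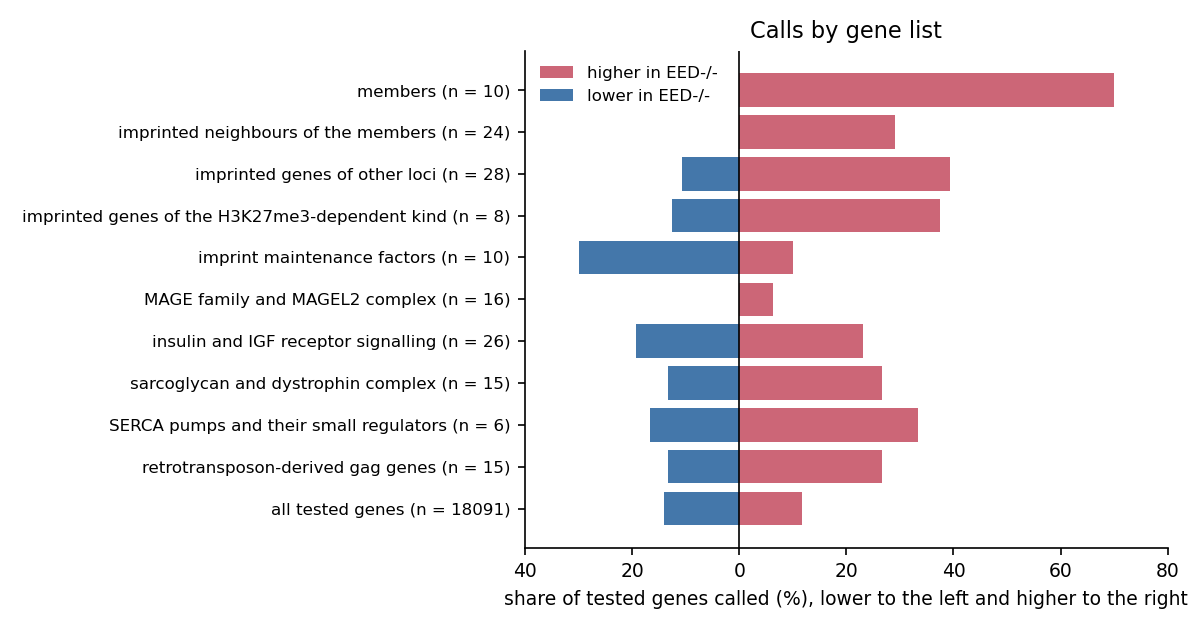
Share of tested genes called higher (right) and lower (left) in EED-/- cerebellum for the 10 imprinted genes ("members"), 9 other gene lists and all tested genes, with the number tested. The bar of the 10 genes reaches 70.0% on the right with none on the left, against 11.7% and 14.1% for all tested genes.

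Markers of other cell types moved with genotype in the same libraries. All 16 granule neuron markers were lower, and their summed level was 6792 to 8598 CPM in WT and 990.3 to 1242 CPM in EED-/- libraries. Of 12 Purkinje cell markers 0 were called by edgeR, with 5432 to 6447 and 5369 to 7183 CPM in sum; 2 were higher without WT replicate 1 and 1 without WT replicate 2. At an unadjusted p under 0.05, 2 were higher and 1 lower, and DESeq2 called 2 and limma-voom 1, all higher. Of 15 markers of cerebellar nuclei and brainstem neurons, 7 were higher, with sums of 1349.8 to 1482 and 2039 to 2550 CPM. Markers of meningeal fibroblasts were higher in 13 of 14 cases (301 to 363 and 579.8 to 756 CPM) and those of skeletal muscle in 14 of 16 (34.9 to 49.0 and 159 to 211 CPM). No marker in these lists was at 0 in all libraries or in all WT libraries.

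Microglial markers were higher in 10 of 12 cases (206 to 221 and 379 to 431 CPM) and markers of dividing cells in 8 of 12 (78.2 to 91.8 and 124 to 160.2 CPM), or 5 without EED-/- replicate 2. Of 15 markers of endothelium and mural cells 5 were higher (571 to 610.5 and 724 to 844 CPM), and 1 was without WT replicate 3 or EED-/- replicate 1 or 2. Sums overlapped between genotypes for choroid plexus and ependyma (2 higher and 1 lower of 12), astroglia (2 and 4 of 11), the oligodendrocyte lineage (4 and 3 of 12) and blood (0 of 6; 257.5 to 559 and 360.5 to 1782 CPM). With WT replicate 3, EED-/- replicate 1 or EED-/- replicate 2 removed, 1 astroglial marker was higher in each case, and 1, 2 and 1 oligodendrocyte markers. The choroid plexus list had 0 to 2 higher and 0 to 2 lower calls with 1 library removed. Of the blood markers 5 were higher without EED-/- replicate 3 and 1 without EED-/- replicate 2; 5 were higher at an unadjusted p under 0.05, and DESeq2 called 1 and limma-voom 0. Mest, Peg3, Plagl1 and Grb10 are known from mesenchyme and muscle as well as from neurons. The part of cell composition in the rises of the imprinted genes was not tested.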

How the data were processed

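RNA-seq of polyadenylated RNA was analysed in 3 WT and 3 EED-/- cerebellar libraries at postnatal day 14. The deposited gene table holds estimated counts that are not all whole. Over all listed genes, zeros included, 22.5% to 23.6% of values per library differ from a whole number by more than 1e-06. Salmon 1.1.0, Trimmomatic 0.36 and DESeq2 1.26.0, with the builds GRCm38 and mm10, are named per the submitters' processing notes, without their settings or any use of strand. The authors' table of differences gives, per the file headers, a mean normalised signal, log2 fold changes with standard errors, a score (the test statistic), and p-values, raw and adjusted. Its adjusted p is 1 for 20212 genes without a p.

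Estimated counts were rounded and fitted over all genes with edgeR 4.0.16 in R 4.3.3 (TMM scaling, filterByExpr, robust quasi-likelihood test, Benjamini-Hochberg threshold 0.05). Log2 ratios within a library used 0.5 counts added to each gene and an exact two-sided permutation test. Alternatives were other scalings, DESeq2 1.42.0, limma-voom (limma 3.58.1), no filter, the replicate number as a block, and leaving out each library. Replicates differed by more than counting noise (chi-square per degree of freedom of 8.36 to 55.2). GENCODE's GRCm38 gene models gave the positions; 99.9% of tested genes matched by identifier. Scripts were tested on simulated data.

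The 10 genes and all lists were chosen with earlier results of these data known. Outside the 10, the text names every imprinted neighbour that passed the test, up to 3 called genes with the smallest adjusted p in each other list, and the 2 closest profiles of each called gene. Usp29, Copg2, Blcap, Snrpn, Adam23, Airn, Kcnk9, Peg13, Gab1, Trim28, Sgca, Sgcd, Dtna, Arc, Rtl4, Asprv1, Atp10a, A330076H08Rik, Casd1, Ppp1r9a, Pon2 and Gm23134 were named after their values were seen. The ChIP-seq samples were not analysed here.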

Additional observations from a re-analysis of the deposited data

How the results depend on the processing

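Over 13 alternatives per gene, 125 of 130 values of the 10 imprinted genes kept their direction and their side of the threshold, as did 539 of 637 values of other named genes; 56 of 56 ratio differences moved by less than the spread between libraries, although that of Usp29 over Peg3 changed sign, from -0.03 to 0.0041 without WT replicate 2. Of the 10 genes 7 were higher and 0 lower under every alternative except where Peg3 lost its call, which left 6 higher (with the replicate block, or with WT replicate 3, EED-/- replicate 1 or EED-/- replicate 3 removed). The adjusted p of Peg3 ranged from 0.00254 to 0.119 over the 13. Log2 fold changes that changed sign, none of them called, were Sgce at 0.0059 with upper-quartile scaling; Copg2 at 0.0029 with RLE, 0.072 with library sizes and 0.091 with upper-quartile factors. With 1 library left out Copg2 ranged from -0.073 to 0.060 (EED-/- replicate 2 left out), Adam23 from -0.027 (EED-/- replicate 3) to 0.17, and Snrpn was -0.025 without WT replicate 2. Calls over all genes ranged from 1205 to 2176 higher and from 1335 to 2476 lower when 1 library was left out; the share of calls that were higher was 45.5% with TMM, 61.3% with upper-quartile factors and 58.6% with plain library sizes, which moved the median of all genes by 0.12 and 0.10 on the log2 scale. The replicate numbers do not pair the samples: deviations of same-numbered libraries correlated at 0.0276, -0.233 and -0.00125. With the replicate number as a block, 1505 genes were higher and 1706 lower, and Peg3 had an adjusted p of 0.0553. Depth limits the genes with few counts, among them Slc38a4, Sln and Sgca with 27, 28 and 40 counts over the 3 WT libraries.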
